A study of Rattus norvegicus with 9 samples.

Results

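The enzymes described here detoxify reactive oxygen species and reactive chemicals in cells. They are the superoxide dismutases, catalase, the glutathione peroxidases, the peroxiredoxins, the thioredoxins and their reductases, the enzymes that make and reduce glutathione, the soluble glutathione transferases, the haem oxygenases, the quinone reductase NQO1 and the epoxide hydrolase EPHX1. This set was chosen with earlier results of these data known. Its genes were found by symbol alone, and 52 of the 23480 symbols of the count table matched. The table holds RNA-seq counts of polyadenylated RNA from 9 skin samples, each from a male rat of the outbred Wistar strain. Of these rats 4 were old, at 24 months, and were compared with 5 young rats, at 6 months, and the labels give no treatment or genetic change for either age. Each sample is bulk skin tissue, so fewer cells of a type and less RNA per cell cannot be told apart, and the body site the skin came from is unknown here.

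Superoxide dismutases turn superoxide into hydrogen peroxide, which catalase, the glutathione peroxidases and the peroxiredoxins break down. Glutathione, a tripeptide built by the glutamate-cysteine ligase GCLC and GCLM and the synthetase GSS, supplies electrons to the glutathione peroxidases and is joined to reactive molecules by the glutathione transferases. Thioredoxin supplies electrons to most peroxiredoxins, and NADPH keeps both carriers reduced. Many of these genes are targets of the transcription factor NRF2, which binds the antioxidant response element.

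Total counts ran from 20.1 to 34.1 M in the old samples and from 17.3 to 20.2 M in the young samples (M, 1000000 counts). In old replicates 1 and 3 every count of the table was even, with 0 odd counts, whereas the other 7 libraries held 8874 to 9227 odd counts each. The results that follow use the counts as deposited; with the counts of those 2 libraries divided by 2, old totals averaged 19.2 ± 4.41 M against 18.9 ± 1.27 M in young samples (SD, n = 4 and 5; two-sided exact permutation p = 0.921; as deposited p = 0.0159). Markers of skin were present, with 11 of 12 epidermal keratinocyte markers and 12 of 12 dermal fibroblast markers in the table and counted at both ages. The samples also held other tissues. Skeletal muscle markers summed to 2.04 to 12.4% of counts in old samples and 5.49 to 13.4% in young samples (1 of 12 rose and 3 fell), and hair follicle markers to 0.00378 to 0.552% in old samples and 0.00253 to 1.40% in young samples. Adipocyte markers summed to 0.301 to 0.616% in old samples and 0.0680 to 0.128% in young samples, and 9 of 11 tested rose. Macrophage and monocyte markers summed to 0.0497 to 0.103% in old samples and 0.0133 to 0.0261% in young samples, and 11 of 11 rose. Of dermal fibroblast markers 8 of 12 rose, while 5 of 11 keratinocyte and 5 of 12 sebaceous gland markers fell, and 0 of 10 hair follicle and 0 of 10 blood endothelium markers passed. Apart from models with muscle, hair follicle and adipocyte scores, the part of these tissues in the differences that follow was not tested. Of these scores, that of adipocytes cannot be told apart from age.

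In old skin, 9 of the 52 enzyme genes rose and 3 fell. Those that rose were the extracellular superoxide dismutase SOD3, the glutathione peroxidases GPX3, GPX7 and GPX8, the glutathione transferases GSTA1, GSTT1, GSTT2 and GSTZ1, and EPHX1. The peroxiredoxins PRDX2 and PRDX5 and the haem oxygenase HMOX1 fell. A call is an adjusted p under 0.05 in edgeR's quasi-likelihood test with Benjamini-Hochberg adjustment over all 14933 genes tested. Of the 52 genes, 45 had enough counts to be tested, so that 20% of those tested rose and 6.67% fell, against 9.62% and 4.41% of all genes tested. The 45 tested genes had a median log2 fold change of -0.04, and all genes tested had one of -0.05. The ages did not overlap in 8 members that were higher in old skin (17.8% of those tested, 10% of all genes) and in 4 that were lower (8.89%, 6.51% of all genes). GSTA1 passed the filter on low counts through the old samples alone and so had to be higher there; without it 8 of 44 members rose (18.2%), and 7 were higher with no overlap (15.9%). Of the 11 other calls, the 6 rises of SOD3, GPX7, GPX8, GSTT1, GSTT2 and GSTZ1 were kept when any single library was left out. They were also kept without both libraries of even counts, where GPX3, EPHX1, PRDX2, PRDX5 and HMOX1 were no longer called and GSTA4 fell. With those counts divided by 2 instead, the same 12 genes were called.

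**Figure D1:**
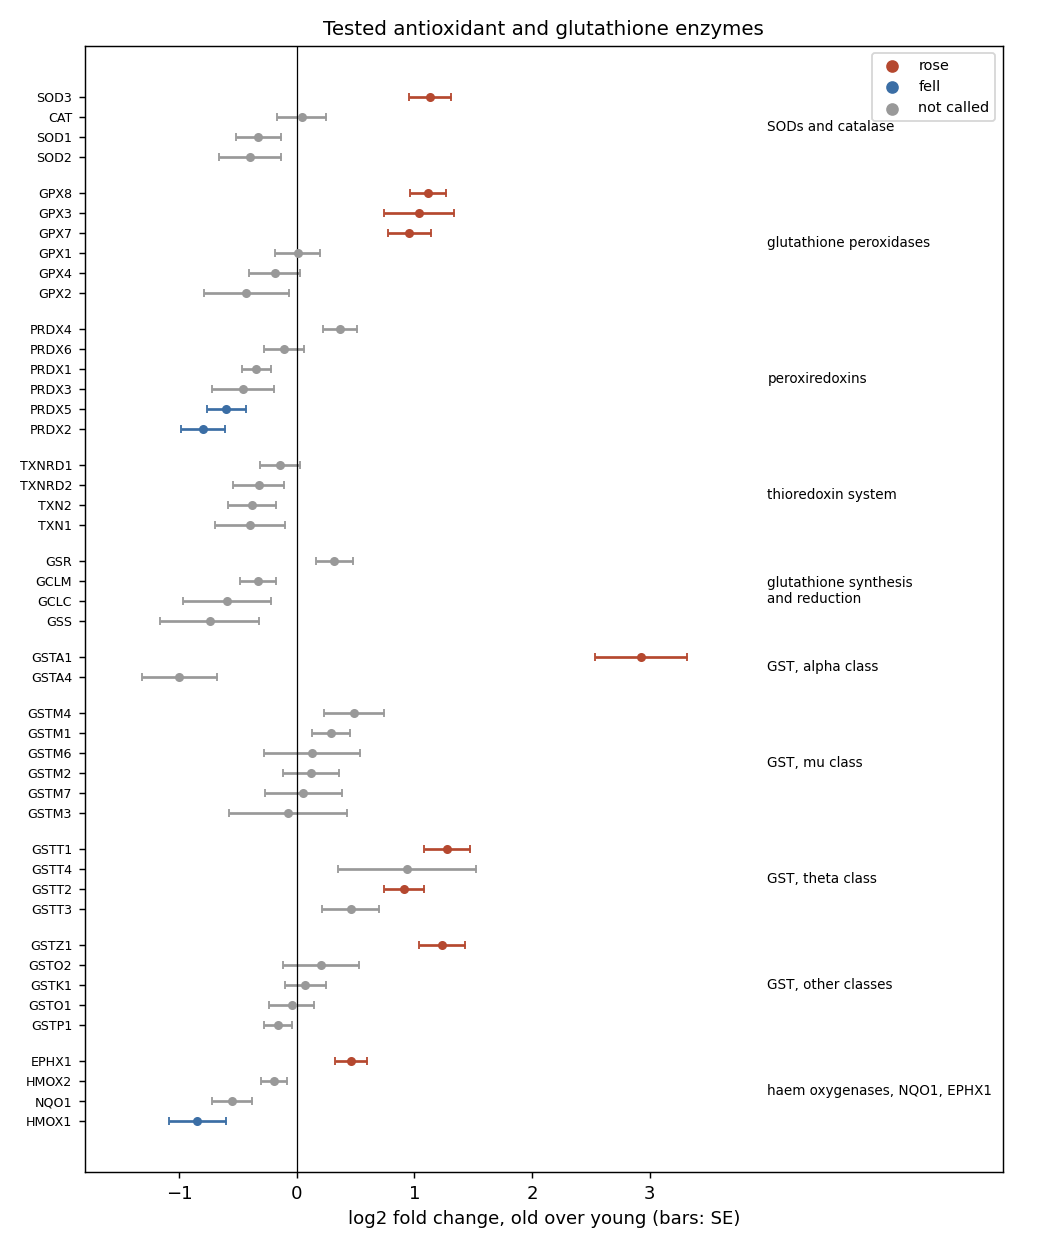
Log2 fold change (old over young, horizontal axis) of the 45 tested enzyme genes, grouped by role, with bars for the SE; red marks genes that rose, blue genes that fell and grey genes not called. The called rises sit between 0.46 and 2.93 and the called falls between -0.84 and -0.60. The value of 2.93 is that of GSTA1, which passed the filter on low counts through the old samples alone. Genes not called run from -0.997 (GSTA4) to 0.94 (GSTT4).

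Among the superoxide dismutases and catalase, SOD3, which is secreted and binds the extracellular matrix, was the one that rose. It had 164, 166, 127 and 209 CPM (counts per M, TMM-normalized) in the 4 old samples, against 53.6, 85.5, 86.8, 75.1 and 79.4 CPM in the 5 young samples. Every old sample lay above every young sample (log2 fold change 1.13 ± 0.18, SE; edgeR adjusted p = 0.00369). The cytosolic SOD1, at 182 ± 32 CPM in old skin and 228 ± 50.2 CPM in young skin, did not pass (SD, n = 4 and 5; log2 fold change -0.32, edgeR adjusted p = 0.283). The mitochondrial SOD2 was at 133 ± 47.2 CPM in old skin and 175 ± 44.3 CPM in young skin (-0.40, edgeR adjusted p = 0.345). Within each sample, counts of SOD3 were 0.754 to 1.16 times those of SOD1 in old skin and 0.282 to 0.364 times in young skin, with no overlap. This ratio does not depend on how libraries are scaled, but it compares genes of unequal length, so it bears on the difference between ages and not on which gene is more abundant. Such ratios overlapped between the ages for GPX3 over GPX1 (2.57 to 7.19 in old skin, 1.45 to 2.69 in young skin). They also overlapped for HMOX1 over HMOX2 (0.535 to 1.12 in old skin, 0.977 to 1.84 in young skin), GCLC over GCLM and TXN1 over TXN2. Catalase, the peroxide-splitting enzyme of peroxisomes, averaged 269 ± 46.8 CPM in old skin and 261 ± 62.6 CPM in young skin (0.04 ± 0.21, SE).

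Of the 8 glutathione peroxidases, 6 were tested and 3 rose, GPX8, GPX7 and GPX3, while 9.62% of all genes rose. GPX8, of the endoplasmic reticulum membrane, had 29.5, 30.3, 25.6 and 24.1 CPM in old samples, against 14.9, 13.2, 9.31, 14.0 and 11.7 CPM in young samples. No old sample was as low as a young one, and the log2 fold change was 1.12 ± 0.15 (SE; edgeR adjusted p = 0.00213). GPX7, which lies in the endoplasmic reticulum lumen, had 18.2, 23.4, 14.6 and 16.9 CPM in old samples, against 9.10, 11.5, 6.84, 10.6 and 9.07 CPM in young samples. Its groups did not overlap either (0.96 ± 0.19, edgeR adjusted p = 0.00877). GPX3, the plasma glutathione peroxidase, had 1242, 1129, 649 and 553 CPM in old samples, against 382, 606, 275, 430 and 479 CPM in young samples. Old replicate 4 lay below young replicate 2, so the ages overlapped (1.04 ± 0.30, edgeR adjusted p = 0.0442). The call of GPX3 was lost without old replicate 1 (edgeR adjusted p = 0.0883) or 2 (0.0847) and without young replicate 1 (0.0731), 3 (0.0911), 4 (0.0788) or 5 (0.0705), at log2 fold changes of 0.89 to 1.26 over the 9 libraries left out. The other 3 tested did not pass. GPX1, the general cytosolic enzyme, averaged 198 ± 23.6 CPM in old skin and 197 ± 47.9 CPM in young skin (SD; 0.01 ± 0.19, SE). GPX4, which reduces lipid hydroperoxides in membranes, averaged 152 ± 39.6 CPM in old skin and 173 ± 35.7 CPM in young skin, and GPX2, an enzyme of epithelia, 18.3 ± 8.78 CPM in old skin and 24.6 ± 8.87 CPM in young skin. GPX5 had 4 counts over the old libraries and 2 over the young, and GPX6 had 0 counts in every library, where 0 allows up to 3 counts, or 0.0879 to 0.174 counts per M over the libraries (counting error only).

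**Figure D2:**
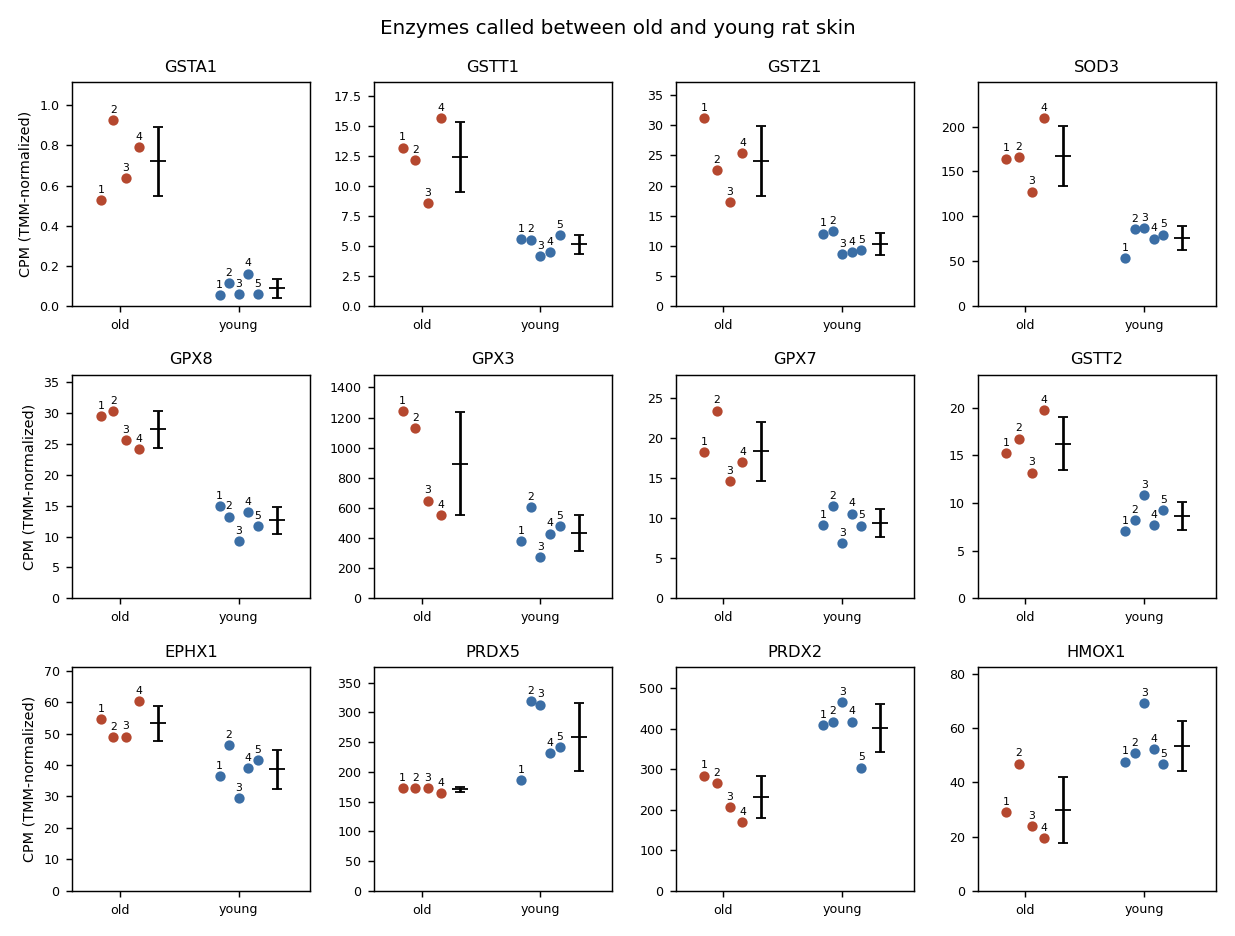
TMM-normalized CPM (vertical axis, from 0) of the 12 called genes in each old (red, left) and young (blue, right) sample, with the replicate number beside each point and the mean ± SD beside each group. In GPX3 and HMOX1 the groups overlap, through old replicate 4 and old replicate 2; in the other 10 panels they do not.

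The 6 peroxiredoxins, which reduce peroxides with a cysteine, included 2 that fell and none that rose. Of all genes tested, 4.41% fell and 9.62% rose. PRDX2, a cytosolic enzyme that is abundant in red blood cells, had 285, 266, 206 and 170 CPM in old samples, against 408, 418, 465, 418 and 304 CPM in young samples. All old samples lay below all young ones (-0.80 ± 0.19, SE; edgeR adjusted p = 0.0208). Its call was lost without old replicate 3 (edgeR adjusted p = 0.0582) or 4 (0.0669) and without young replicate 3 (0.0531) or 4 (0.0577). Of the genes of erythroid and blood cells, 5 of 7 tested rose and 1 fell. Their summed level was 0.0172 to 0.0472% of counts in old samples and 0.00591 to 0.0120% in young samples. The part of blood cells in the difference of PRDX2 was not tested. PRDX5, found in mitochondria, peroxisomes and cytosol, had 173, 173, 172 and 165 CPM in old samples, against 186, 319, 313, 232 and 242 CPM in young samples. The old samples were close together and the young ones spread widely above them (-0.60 ± 0.17, edgeR adjusted p = 0.0424). The call of PRDX5 was kept without young replicate 1, the lowest young sample (edgeR adjusted p = 0.0174), and lost without any other library, at adjusted p-values of 0.0626 to 0.147. PRDX1 was lower in all old samples (55.8 to 78.4 CPM) than in all young samples (81.6 to 103 CPM) and did not pass (-0.34 ± 0.13, edgeR adjusted p = 0.106). The mitochondrial PRDX3 (-0.46), the endoplasmic reticulum PRDX4 (0.37) and PRDX6 (-0.11), which needs glutathione in place of thioredoxin, did not pass. Log2 fold changes were below 0 for 5 of the 6 peroxiredoxins, against 8103 of all 14933 genes tested. These are too few genes to say anything of the peroxiredoxins as a set. With library totals alone as the scaling, 4 of 6 were below 0, and PRDX6 turned to 0.05. That scaling moved the median of all genes from -0.05 to 0.11. The falls of both PRDX2 (edgeR adjusted p = 0.0705) and PRDX5 (0.125) were lost under it.

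None of the 4 thioredoxin genes passed. TXN1, the cytosolic thioredoxin, averaged 117 ± 39.6 CPM in old skin and 154 ± 54.9 CPM in young skin (SD, n = 4 and 5; log2 fold change -0.40 ± 0.30, SE), and its mitochondrial relative TXN2 122 ± 30.5 CPM in old skin and 159 ± 32.1 CPM in young skin (-0.38 ± 0.20). The reductases TXNRD1 of the cytosol (-0.14) and TXNRD2 of mitochondria (-0.32) were likewise within the spread of the samples. The genes that make and reduce glutathione did not pass either. GCLC, the catalytic subunit of glutamate-cysteine ligase, had 72.2, 44.3, 36.3 and 29.5 CPM in old samples, against 126, 43.2, 50.4, 79.6 and 44.5 CPM in young samples. GSS had 38.3, 21.1, 11.4 and 12.4 CPM in old samples, against 60, 27.7, 25.9, 40.0 and 20.3 CPM in young samples. The ages overlapped in both genes, and the highest sample of each age was the same for both genes, old replicate 1 and young replicate 1. The regulatory subunit GCLM was at 28.3 ± 5.83 CPM in old skin and 35.5 ± 4.42 CPM in young skin (-0.33 ± 0.16, edgeR adjusted p = 0.195). GSR, which reduces oxidized glutathione with NADPH, was at 32.9 ± 4.26 CPM in old skin and 26.4 ± 5.22 CPM in young skin (0.32 ± 0.16, edgeR adjusted p = 0.207), and passed without young replicate 1 (0.48, edgeR adjusted p = 0.0330).

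The glutathione transferases, which join glutathione to reactive chemicals, held 4 of the 9 rises and 0 of the falls among 17 tested of 22 in the table. That is 23.5% that rose, or 3 of 16 (18.8%) without GSTA1, against 9.62% of all genes, while 4.41% of all genes fell. Of the 4 theta class genes, 2 rose. GSTT1 had 13.2, 12.2, 8.60 and 15.6 CPM in old samples, against 5.58, 5.53, 4.12, 4.50 and 5.88 CPM in young samples (1.27 ± 0.20, SE; edgeR adjusted p = 0.00340). GSTT2 had 15.3, 16.8, 13.2 and 19.8 CPM in old samples, against 7.08, 8.21, 10.8, 7.71 and 9.24 CPM in young samples (0.91 ± 0.17, edgeR adjusted p = 0.00741). In both, every old sample exceeded every young one. GSTT3 (0.46) and GSTT4 (0.94) did not pass, and GSTT3 passed without old replicate 2 (0.66, edgeR adjusted p = 0.0357), which was the lowest of the 9 samples at 24.5 CPM. In RefSeq's rat assembly GRCr8 these 4 genes lie in 1 cluster with 1 other gene between them, and reads shared between such relatives cannot be assigned with certainty. Summed over the theta class, levels were 57.0 to 101 CPM in old samples and 43.5 to 51.5 CPM in young samples.

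GSTZ1, which also acts in the breakdown of tyrosine, had 31.2, 22.6, 17.2 and 25.4 CPM in old samples, against 12, 12.4, 8.54, 8.89 and 9.24 CPM in young samples. No old sample was as low as a young one (1.24 ± 0.19, SE; edgeR adjusted p = 0.00364). GSTA1 was counted rarely, with 20, 18, 22 and 20 counts in old samples, against 1, 2, 1, 3 and 1 counts in young samples. Over the pooled counts, 80 in old and 8 in young libraries, its level was 7.69 times as high in old skin (exact binomial 95% interval 3.72 to 18.4, counting error only), and 8.21 times (3.91 to 19.9) with the even counts divided by 2. The fitted log2 fold change was 2.93 ± 0.39 (edgeR adjusted p = 0.00203). As GSTA1 passed the filter on low counts through the old samples alone, neither the interval nor this p-value tests whether it was higher there. RefSeq lists symbols of other alpha class genes as synonyms of the present rat Gsta1, so which alpha class gene the table means is uncertain. Its relatives GSTA2, GSTA3 and GSTA5 had too few counts to be tested, at 1 to 16 counts in an old sample and 0 to 17 in a young one. Their pooled counts were 13, 23 and 24 in old libraries and 27, 27 and 42 in young libraries. Summed over the 5 alpha class genes, mostly GSTA4, levels were 7.94 to 19.2 CPM in old samples and 16.4 to 31.9 CPM in young samples. The class sum thus did not rise with GSTA1, and the ages overlapped in it. GSTA4, which acts on the lipid peroxidation product 4-hydroxynonenal, had 14.9, 7.66, 18.0 and 6.95 CPM in old samples, against 15.5, 31.1, 21.3, 26.5 and 24.5 CPM in young samples. It did not pass (-0.997 ± 0.32, edgeR adjusted p = 0.0653), but did without old replicate 3 (-1.23, edgeR adjusted p = 0.0333), without both libraries of even counts (-1.67, edgeR adjusted p = 0.0119) and with the muscle score as covariate (-1.29, edgeR adjusted p = 0.0337).

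None of the 6 tested mu class genes passed. Their log2 fold changes lay between -0.07 and 0.49, and their sum with the untested GSTM5 and GSTM6L was 129 to 247 CPM in old samples and 124 to 214 CPM in young samples. GSTM4 had 56.2 CPM in old replicate 1, against 21.9 to 28.7 CPM in the other old samples and 21.0 to 26.1 CPM in young samples, and its log2 fold change of 0.49 was 0.14 without that library. These genes form a cluster of close relatives, so the value of each is uncertain, and GSTM5 had 0 counts and GSTM6L 1 count over all libraries. GSTP1, the pi class enzyme and a common transferase of epithelia, averaged 118 ± 11.1 CPM in old skin and 131 ± 13.7 CPM in young skin (SD; -0.16 ± 0.12, SE). GSTK1 of mitochondria and peroxisomes (0.07), GSTO1 (-0.04) and GSTO2 (0.21) did not pass.

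HMOX1, the inducible enzyme that degrades haem, had 28.9, 46.9, 23.7 and 19.4 CPM in old samples, against 47.6, 50.8, 69.0, 52.3 and 46.6 CPM in young samples. Old replicate 2 reached the lower edge of the young range and the other 3 old samples lay well below it (-0.84 ± 0.24, SE; edgeR adjusted p = 0.0479). Its call was kept without old replicate 2 (-1.15, edgeR adjusted p = 0.00490) and lost without any other library, at adjusted p-values of 0.0654 to 0.143. It was also lost with RLE size factors (edgeR adjusted p = 0.0521), upper quartile scaling (0.0732) and library totals alone (0.0734). HMOX1 is a known product of macrophages that recycle red blood cells, and the 11 macrophage and monocyte markers tested rose in the same samples. The part of macrophages in the difference of HMOX1 was not tested. The constitutive HMOX2 was at 38.5 ± 3.31 CPM in old skin and 44.1 ± 5.25 CPM in young skin (SD; -0.19 ± 0.11, SE). NQO1, which reduces quinones to hydroquinones, had 30.5, 22.2, 25.5 and 27.3 CPM in old samples, against 32.3, 51.7, 43.1, 35.2 and 31.1 CPM in young samples. It was lower in every old sample but did not pass (-0.55 ± 0.17, edgeR adjusted p = 0.0598). EPHX1, which opens reactive epoxides, had 54.7, 48.8, 49.0 and 60.2 CPM in old samples, against 36.6, 46.4, 29.4, 39.0 and 41.6 CPM in young samples (0.46 ± 0.13, edgeR adjusted p = 0.0483). The groups did not overlap, but the call of EPHX1 was kept only without old replicate 3 or young replicate 2, with adjusted p-values of 0.0518 to 0.0960 without the others. It was also lost with the libraries of even counts left out (0.0911).

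The antioxidant response element bears on this set because it is the sequence through which NRF2 acts. Its core TGACNNNGC was sought on both strands in the 250 bases before the start of each gene, in promoter sequences from RefSeq (GRCr8). All 52 symbols were current RefSeq symbols, and 38 had exactly 1 promoter entry. Of these 38, 8 held the core (21.1%), against 10.1% of the 33469 promoters in the table. Those 33469 include genes with several entries, which were left out among the members, so the shares are of unlike sets. The promoters of a gene that rose (GSTZ1) and of 3 that did not pass though they hold a match (GCLM, PRDX1 and GSTP1) are shown 5′ to 3′, with the match in capitals; the matches of GSTZ1, GCLM and PRDX1 are on the opposite strand.
GSTZ1 (chr6:112525356-112525605, plus strand): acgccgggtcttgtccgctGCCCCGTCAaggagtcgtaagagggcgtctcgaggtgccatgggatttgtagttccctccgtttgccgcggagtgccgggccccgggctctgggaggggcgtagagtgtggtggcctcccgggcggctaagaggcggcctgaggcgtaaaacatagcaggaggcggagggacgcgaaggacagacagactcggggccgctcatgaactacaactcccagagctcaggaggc
GCLM (chr2:213031885-213032134, plus strand): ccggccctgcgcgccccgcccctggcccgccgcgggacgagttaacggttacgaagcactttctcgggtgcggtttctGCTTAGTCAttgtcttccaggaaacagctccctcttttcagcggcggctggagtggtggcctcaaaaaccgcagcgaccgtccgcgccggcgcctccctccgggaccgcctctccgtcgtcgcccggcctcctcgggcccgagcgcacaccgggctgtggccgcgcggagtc
PRDX1 (chr5:135383656-135383905, plus strand): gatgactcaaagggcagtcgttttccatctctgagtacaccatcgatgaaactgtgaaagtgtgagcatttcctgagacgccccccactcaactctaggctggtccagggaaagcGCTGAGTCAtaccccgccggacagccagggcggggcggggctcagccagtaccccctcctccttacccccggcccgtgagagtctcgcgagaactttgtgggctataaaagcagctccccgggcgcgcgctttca
GSTP1 (chr1:210769706-210769955, minus strand): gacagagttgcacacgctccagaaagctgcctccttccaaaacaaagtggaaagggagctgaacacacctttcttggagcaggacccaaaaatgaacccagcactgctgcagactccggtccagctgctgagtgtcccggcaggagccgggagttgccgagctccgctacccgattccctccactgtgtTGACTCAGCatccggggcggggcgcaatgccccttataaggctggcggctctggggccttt
The matches of PRDX1 and GSTP1 also hold TGACTCA, the binding sequence of AP-1, so the letters do not tell the 2 motifs apart. The other promoters with a match were those of SOD2, GPX2, GSTM5 (2 matches) and GSTM7. Of the called genes with 1 entry, GSTZ1 held a match, and the other 5, GPX3, GPX7, GSTA1, PRDX2 and PRDX5, held no such letters in this window. The remaining called genes were not searched, as SOD3, GPX8, GSTT1, GSTT2 and HMOX1 had no promoter entry and EPHX1 had several. A match describes the sequence and is not a measured binding site.

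Other genes of the pathway were read from 7 lists, in which 15 of 95 tested genes rose (15.8%) and 5 fell (5.26%), against 9.62% and 4.41% of all genes; the share that fell was thus near that of all genes. None of 9 NRF2 regulators passed: NFE2L2, which encodes NRF2, had a log2 fold change of 0.04 and KEAP1, its inhibitor, one of -0.14. None of 9 genes of selenoprotein synthesis and supply passed. Of 19 other thiol redox enzymes, 1 fell, the microsomal transferase MGST3, at 72.2 ± 14.9 CPM in old skin and 122 ± 16.5 CPM in young skin (SD, n = 4 and 5; -0.76 ± 0.16, SE; edgeR adjusted p = 0.0149). Its call was lost without old replicate 4 (edgeR adjusted p = 0.0544). Of 19 genes of glutathione precursor supply and breakdown, 3 rose (15.8%) and 1 fell (5.26%). The 3 that rose encode peptidases of the cell surface that break down glutathione or its products. They were DPEP2 (13.3 ± 3.16 CPM in old skin and 3.10 ± 0.801 CPM in young skin), GGT5 (45.8 ± 9.97 CPM in old skin and 22.3 ± 3.53 CPM in young skin) and ANPEP (115 ± 18.7 CPM in old skin and 71.7 ± 13.6 CPM in young skin). The call of ANPEP was lost without young replicate 5 (edgeR adjusted p = 0.0530). GGCT, which cleaves gamma-glutamyl amino acids inside the cell, fell (-1.24 ± 0.27, edgeR adjusted p = 0.0142). It was at 74.0 ± 19.9 CPM in old skin, against 175 ± 55.2 CPM in young skin. Its call was lost without old replicate 4 (edgeR adjusted p = 0.0565). Without both libraries of even counts, MGST3, ANPEP and GGCT were no longer called.

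Of 12 genes tested from the list for NADPH supply, 2 fell (16.7%) and 1 rose (8.33%). The malic enzymes ME1 (-0.33, edgeR adjusted p = 0.239) and ME3 (0.56, edgeR adjusted p = 0.418) of this list did not pass. MTHFD1, a folate enzyme, fell by 0.44 on the log2 scale (edgeR adjusted p = 0.00781) and lost its call with library totals alone (edgeR adjusted p = 0.169). The mitochondrial malic enzyme ME2 rose by 0.89 ± 0.23 (edgeR adjusted p = 0.0317). This call held without old replicates 1 and 4 and young replicate 1 and was lost without any other library (edgeR adjusted p up to 0.0736). It was also lost without both libraries of even counts.

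The list with the largest share of rises was that of oxidant producing enzymes, in which 8 of 15 rose and 1 fell (53.3% rose, against 9.62% of all genes; median log2 fold change 0.91, against -0.05 over all genes). AOX1, an aldehyde oxidase, was at 51.1 ± 10.8 CPM in old skin and 9.16 ± 2.68 CPM in young skin (2.48 ± 0.25, SE; edgeR adjusted p = 0.00117), and XDH, the xanthine oxidoreductase, at 245 ± 23.5 CPM in old skin and 130 ± 10.2 CPM in young skin (0.91 ± 0.11, edgeR adjusted p = 0.00170). The phagocyte oxidase genes CYBB (2.42 ± 0.34) and RAC2 (1.61 ± 0.13) rose beside the macrophage markers. CYBB was highest in old replicate 3 at 25.3 CPM, the sample with the highest macrophage marker sum (0.103%), while RAC2, at 15.6, 17.1, 15.5 and 15.5 CPM in old samples, did not follow that sum within old skin. NCF4 (1.48, edgeR adjusted p = 0.00386), NOX4 (1.47, edgeR adjusted p = 0.0117) and MPO (3.77, edgeR adjusted p = 0.0142) also rose, and are named here because of their values. The call of NOX4 was lost with the replicate number as a block and without both libraries of even counts. Whether genes of the pathway lists passed the filter on low counts through 1 age alone, as GSTA1 did, was not checked. NOX1, an oxidase of epithelia and smooth muscle that is named here because of its value, fell by 1.26 ± 0.26 on the log2 scale (edgeR adjusted p = 0.0129). Its call was lost without both libraries of even counts. Of 12 genes of metal and haem handling, 3 (25%) rose: transferrin TF (2.34 ± 0.41), the ferritin light chain FTL1 (0.71 ± 0.14) and ceruloplasmin CP (0.84 ± 0.19), a copper-carrying iron oxidase. The call of CP was lost without both libraries of even counts.

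**Figure D3:**
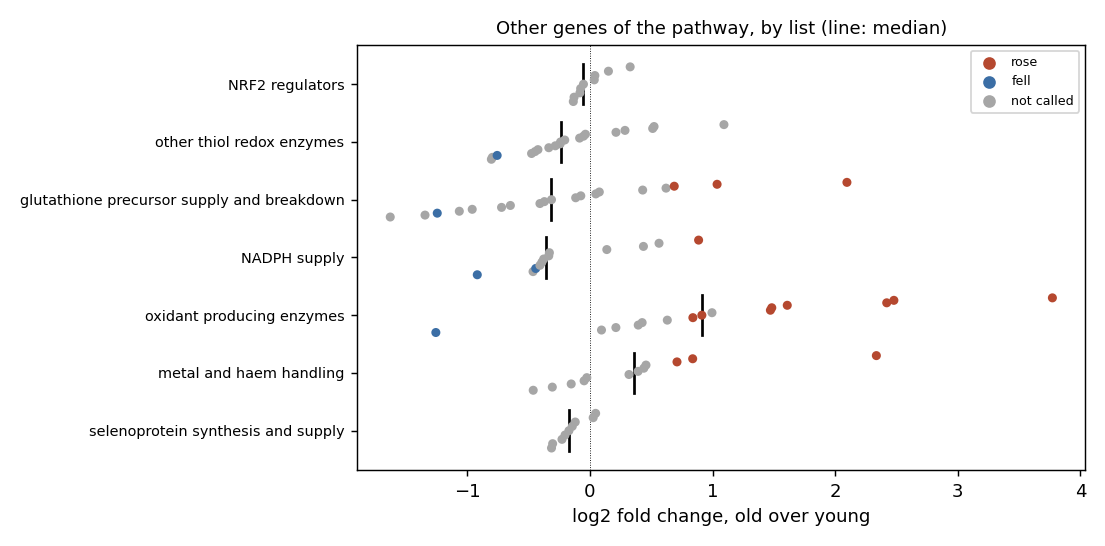
Log2 fold change (old over young, horizontal axis) of each tested gene in 7 lists of other pathway genes, with red for rose, blue for fell and grey for not called; black lines are list medians. The oxidant producing enzymes have their median at 0.91 and the NRF2 regulators at -0.05.

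Samples of the same age also differed in the amount of hair follicle and muscle RNA. A hair score (mean log2 CPM of 10 hair follicle markers) ran from 0.99 to 6.69 in old samples and from -0.74 to 8.19 in young samples. In a model with age and this score, both fitted over all genes, GCLC, GSS and TXN1 rose with the score, which is 3 of the 45 tested members against 3.87% of all genes, a share too near the background to say anything of the members as a set, and 0 members fell with it (0.295% of all genes did). Each log2 unit of the score went with 0.16 ± 0.03 more on the log2 scale for GCLC (SE; edgeR adjusted p = 0.0340), 0.18 ± 0.04 for GSS (edgeR adjusted p = 0.0367) and 0.12 ± 0.03 for TXN1 (edgeR adjusted p = 0.0432). TXN1 had 174, 115, 86.0 and 94.3 CPM in old samples, against 230, 141, 120, 188 and 91.8 CPM in young samples. Young replicates 1 and 4 and old replicate 1, which had the 3 highest hair scores, had the 3 highest levels of all 3 genes. Among samples with lower scores the order was less regular, as young replicate 2, at a score of 0.73, had more GSS and TXN1 than young replicate 3, at 5.13. These slopes were sought after the values were seen and rest on few samples: GCLC kept its call only without young replicate 3 and without old replicates 2 and 3 (edgeR adjusted p up to 0.211 otherwise), GSS only without young replicate 3 and without old replicate 2 (up to 0.201 otherwise), and TXN1 only without young replicates 2 and 3 and without old replicate 2 (up to 0.216 otherwise). In this model, the age effects of the 12 called members were kept for 11 of them and lost for GPX3 (1.04, edgeR adjusted p = 0.0511).

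A muscle score, the mean log2 CPM of 12 skeletal muscle markers, ran from 10.2 to 12.6 in old samples and from 11.5 to 12.7 in young samples. Of these markers 1 rose with age, the fast myosin MYH4 (5.20 on the log2 scale), and 3 fell, the myosins MYH1 (-3.28) and MYH2 (-2.03) and myoglobin MB (-1.99), so the score's own genes changed in both directions with age. In a model with age and this score, 9 of the 45 tested members rose with it (8.46% of all genes did) and 0 fell with it (2.24% of all genes did). They included PRDX3, SOD2, TXN2 and TXNRD2, the mitochondrial peroxiredoxin, superoxide dismutase, thioredoxin and thioredoxin reductase. PRDX3 had 61.4, 112, 48.0 and 77.9 CPM in old samples, against 82.6, 135, 87.0, 83.4 and 125 CPM in young samples. Its slope was 0.51 ± 0.05 on the log2 scale per unit of score (SE; edgeR adjusted p = 0.000478), and that of SOD2 was 0.52 ± 0.06 (edgeR adjusted p = 0.000758). SOD2 had 106, 191, 85.1 and 149 CPM in old samples, against 144, 232, 140, 143 and 214 CPM in young samples. In both genes the 3 samples with the highest muscle scores, old replicate 2 and young replicates 2 and 5, were the 3 highest, and old replicate 3, with the lowest score, was the lowest. The others that rose with the score were GSTM7 (0.68 ± 0.07), GSTM2 (0.43 ± 0.09), GSTT4 (1.16 ± 0.23), GPX4 (0.39 ± 0.07), PRDX6 (0.30 ± 0.06), TXN2 (0.38 ± 0.06) and TXNRD2 (0.38 ± 0.09). PRDX3, SOD2, GSTM7 and TXN2 kept this call without any single library. GPX4 and GSTT4 lost it without old replicate 3 (edgeR adjusted p = 0.0811 and 0.0870), PRDX6 without old replicate 2 (0.0818) or 3 (0.0809), GSTM2 without old replicate 2 (0.157) or 3 (0.0958), and TXNRD2 without old replicate 2 (0.0963) or 3 (0.0977) or young replicate 4 (0.0585) or 5 (0.0554). With the muscle score in the model, GSTM7 (0.40, edgeR adjusted p = 0.0392) and GSTT4 (1.44, edgeR adjusted p = 0.0217) were also called higher in old skin, and PRDX5 (edgeR adjusted p = 0.0617) and HMOX1 (0.0635) were no longer called lower.

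**Figure D4:**
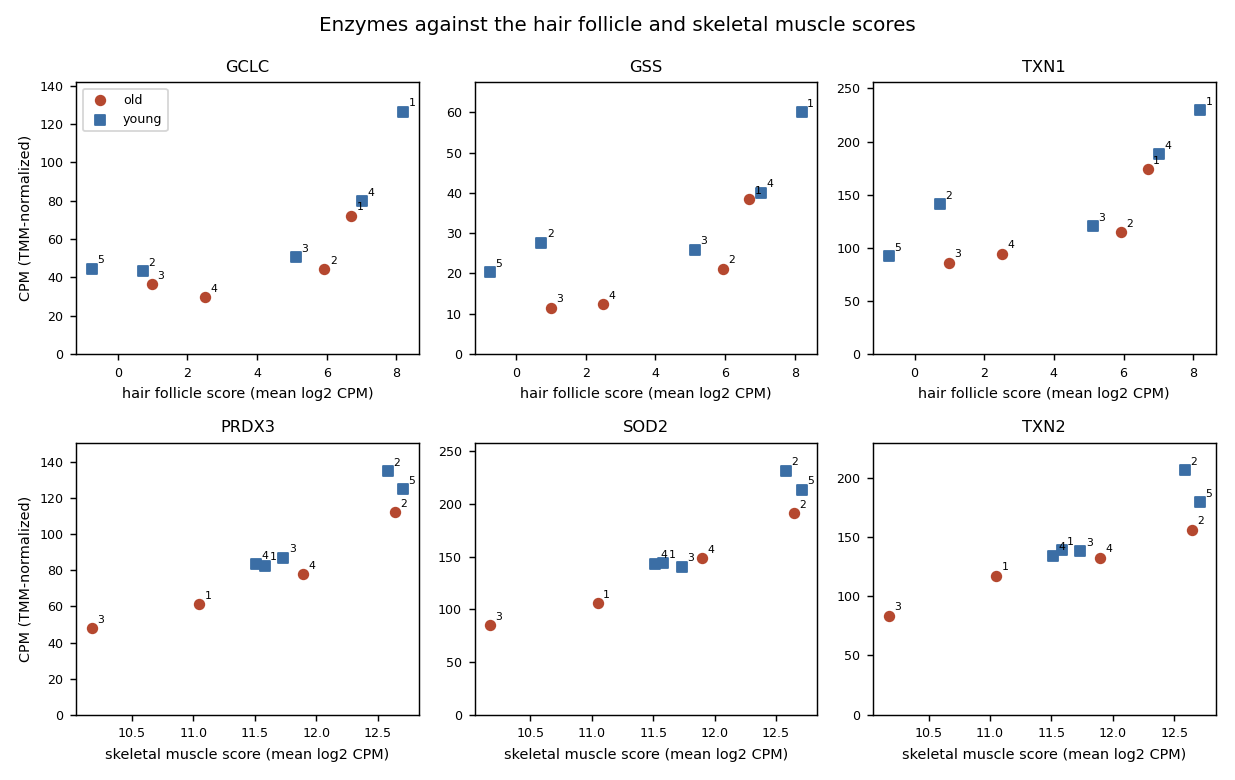
TMM-normalized CPM (vertical axes, from 0) of GCLC, GSS and TXN1 against the hair follicle score (upper row) and of PRDX3, SOD2 and TXN2 against the skeletal muscle score (lower row), in mean log2 CPM; red circles are old and blue squares young samples, with replicate numbers. The highest levels in the upper row belong to young replicate 1, with a hair score of 8.19, and the lowest in the lower row to old replicate 3, with a muscle score of 10.2.

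The adipocyte marker sum did not overlap between the ages, and neither did 8 of the 9 members that rose, GPX3 being the exception. Within old skin, GSTT1, GSTT2 and SOD3 had their highest levels in old replicate 4 and their lowest in old replicate 3. These samples also had the highest (0.616%) and lowest (0.301%) adipocyte marker sums. EPHX1 was highest in old replicate 4 but lowest in old replicate 2. GSTZ1 and GPX7 were lowest in old replicate 3 but highest in old replicates 1 and 2. GPX8 and GPX3 were lowest in old replicate 4, and GSTA1 was lowest in old replicate 1 and highest in old replicate 2. With an adipocyte score as covariate, 0 members and 0 of all genes passed edgeR's test, and 1 rise and 0 falls among members reached an unadjusted p under 0.05 (797 of all genes). The median SE of the members was 0.576 in that model and 0.196 with age alone.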

How the data were processed

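Per the labels' protocols, RNA was isolated from the tissue on Qiagen RNeasy columns, and the TruSeq RNA v2 kit, which does not mark strand, was used to prepare libraries. The submitters' processing notes name BWA. Its version, the genome build and annotation, and how reads were assigned to genes are unknown here. The deposited table holds the authors' raw read counts per gene symbol, with a column per sample, matched by title.

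Genes were kept with filterByExpr (minimum count 10, minimum total 15) and compared with edgeR 4.0.16's quasi-likelihood test (R 4.3.3) on all 9 samples, with TMM scaling and no covariate. Fold changes are old over young. The SE was worked back from the F statistic and is approximate. CPM values are counts per 1000000, given as mean ± SD. The design text calls the samples separate animals. Scores are mean log2 CPM (prior count 2) over marker lists, and slopes with the hair and muscle scores were fitted after seeing the data. On simulated counts for 14760 genes, 99 were changed by 1 on the log2 scale and 96 by 2. The test called 40.4% and 83.3% of them, and 4 of 14565 unchanged genes. Many more genes, 2096, were called in the data, so an adjusted p under 0.05 was harder to reach in the simulation. Its shares therefore do not give the share of changes found in the data. Alternatives were DESeq2 1.42.0, limma-voom (limma 3.58.1), other scalings and filters, thinned libraries, a replicate block, 3 scores as covariates, a stricter threshold and each library left out; dividing or leaving out the all-even libraries and the hair score were added after seeing the data.

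The members and lists were chosen with earlier results of these data known. All members were named, with per-sample CPM for those called; of the 7 pathway lists, up to 4 called genes each by smallest adjusted p, beside 4 more of the oxidant producing list (NCF4, NOX4, MPO and NOX1) that were added after their values were seen. Some called genes are not reported here. Of 98 pathway entries 95 matched a symbol, and of 100 cell type entries 98. Promoters are from RefSeq's GRCr8. No coordinates of the counted genes are given, since the build is unknown. Figures were drawn with matplotlib 3.10.9.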

Additional observations from a re-analysis of the deposited data

Results flagged for a closer look

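In 5 of 90 groups examined, 1 sample stood apart from the rest of its own age by Dixon's criterion at the 95% level, which chance alone exceeds in about 1 in 20 groups. CAT was at 338 CPM in old replicate 4, against 234.9 to 252 CPM in the other old samples (gap over range 0.838). PRDX1 was at 55.8 CPM in old replicate 4, against 75.0 to 78.4 CPM in the other old samples (0.85). PRDX5 was at 165 CPM in old replicate 4, against 172 to 173 CPM in the other old samples (0.868), a small gap in a narrow range. HMOX1 was at 69.0 CPM in young replicate 3, against 46.6 to 52.3 CPM in the other young samples (0.745). TXNRD1 was at 142 CPM in young replicate 1, which had the highest hair follicle score, against 83.8 to 95.5 CPM in the other young samples (0.8). The cause of these gaps was not tested.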

How the results depend on the processing

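Against 3 members that fell, 5 fell with DESeq2, 1 each with upper quartile scaling, no low count filter, the replicate block or both all-even libraries left out, and 0 with library totals alone, the adipocyte score as covariate or an adjusted p under 0.01; leaving out 1 library gave 0 to 2. The 9 rises became 0 with the adipocyte score and 7 to 9 with 1 library left out. As the adipocyte score did not overlap between the ages, counts and signs under it do not separate age from adipocytes. Over all genes, 1437 rose and 659 fell. The falls numbered 1280 with DESeq2, 312 with library totals (where 86.2% of calls were rises), 1072 with the muscle score, 0 with the adipocyte score, 1001 with the hair score, 437 without the all-even libraries and 138 under 0.01. The rises numbered 0 with the adipocyte score and 702 under 0.01. Leaving out 1 library gave 1024 to 1573 rises and 236 to 786 falls, with 236 without old replicate 4 and 350, 371 and 316 without young replicates 2, 3 and 4. In the pathway lists, against 15 rises and 5 falls, rises numbered 23 with library totals, 0 with the adipocyte score and 9 under 0.01, and falls 10 with DESeq2, 10 with the replicate block, 0 with the adipocyte score, 8 with the hair score and 1 under 0.01; leaving out 1 library gave 13 to 17 rises and 3 to 6 falls, the 3 without old replicate 4. The 8 rises among oxidant producing enzymes numbered 0 with the adipocyte score and 5 under 0.01. With the replicate number as a block, 8 members rose and 1 fell, and 1154 rose and 652 fell of all genes. Same-numbered samples did not deviate together (correlations 0.67, -0.07, 0.07 and -0.47 for numbers 1 to 4), so the numbers were not taken as pairs. The cause of these moves was not tested.

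Log2 fold changes that changed sign were those of EPHX1 (-0.084), GPX1 (-0.065), GSR (-0.27), GSTK1 (-0.28), GSTM4 (-0.16), GSTM6 (-0.44), GSTM7 (-0.70), GSTO2 (-0.14), GSTP1 (0.37), GSTT3 (-0.43), GSTT4 (-0.36), HMOX1 (0.14), GGCT (0.46) and MPO (-0.90) with the adipocyte score, and of GSTM6 (-0.078), GPX4 (0.023) and PRDX6 (0.065) with the muscle score. They were also those of GSTM3 (0.11), GSTO1 (0.11), GSTP1 (0.00111) and PRDX6 (0.052) with library totals, GSTO1 (0.028) with upper quartile scaling, GSTM7 (-0.036) with limma-voom, GSTM6 (-0.042) with the block, GPX1 (-0.00073) with thinned libraries, and GPX4 (0.078), GSTM6 (-0.041) and PRDX6 (0.094) without the all-even libraries. With 1 library left out, ranges that crossed 0 were -0.054 to 0.12 for CAT, -0.049 to 0.12 for GPX1, -0.32 to 0.00654 for GPX4, -0.11 to 0.31 for GSTM2, -0.43 to 0.18 for GSTM3, -0.074 to 0.25 for GSTM6, -0.20 to 0.31 for GSTM7, -0.22 to 0.10 for GSTO1, -0.23 to 0.042 for PRDX6 and -0.24 to 0.054 for TXNRD1. Of these, none was called as reported except EPHX1, HMOX1, GGCT and MPO. A missing call does not show that a gene was unchanged at this number of animals. The simulated calls of 40.4% for a change of 1 on the log2 scale do not give the share missed here. The simulation held far fewer changed genes than were called in the data.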
